A study of Mus musculus with 5 samples.

Results

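Cyp7a1 and Cyp8b1 are 2 of the 64 genes of a targeted hepatocyte panel, and they were taken by name as enzymes of classic bile acid synthesis. In the liver, bile acids are made from cholesterol, and the classic pathway is opened by Cyp7a1, the cholesterol hydroxylase that sets its rate. Cyp8b1 is the sterol hydroxylase that acts further on in the pathway and directs its product to cholic acid rather than to the chenodeoxycholic acid branch, from which mice make muricholic acids. Both genes are known to be repressed when bile acids return to the liver, through the nuclear receptor Nr1h4 (FXR), its target Nr0b2 (SHP) and the gut hormone Fgf15, and both are known to follow the time of day.

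UMIs, single captured transcripts, were counted in hepatocytes isolated from livers of WT male C57BL/6J mice on normal chow, at 5 points from feeding into a long fast. All mice were first trained for 3 days on cycles of 16 h without food and 8 h with it, and received drinking water with 20% sucrose along with their food on the day of the experiment. For the fed library (0 h of fasting) mice had eaten for 4 h and were killed at clock hour 13. Fasted libraries followed 8, 16, 24 and 30 h after food and sucrose were taken away, at clock hours 21, 5, 13 and 19. Where 5 values are listed in time order, they are those of 0, 8, 16, 24 and 30 h, and lists of 4 values leave out 0 h. Each time point was 1 library, and the age and number of mice behind a library are not given in the sources used here. There was therefore no replicate error and no test, every interval below is a 95% interval for counting error only, and UMIs from free RNA or doublets were not separated. Fasting time and time of day went together, apart from the 0 h and 24 h libraries, which share the clock hour.

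The libraries held 7208 to 12153 barcodes (47473 in all) and 3979629 to 11288725 panel UMIs. Median UMIs per barcode were 1033, 219, 651, 1202.5 and 1149 in time order, so the 8 h library stood apart as the shallowest. Alb, the albumin gene and the defining hepatocyte marker, made up 69.4% to 71.8% of the panel UMIs of a library. The panel's 6 genes of other liver cells (Cdh5, Mrc1, Cd68, Ptprc, Pdgfra and Pdgfrb) summed to 29.7 to 76.2 UMIs per 1000000 panel UMIs in 4 libraries and to 220 at 8 h. The panel held 0 of 4 listed bile duct cell markers. Between libraries, 238 barcode sequences recurred, 0.504% of those seen. Levels are given on this scale, as CPM, which is largely a ratio to Alb.

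Cyp7a1 (ENSMUSG00000028240) lies on GRCm38 chromosome 4, from 6265612 to 6275633 on the minus strand, with 6 exons. Cyp8b1 (ENSMUSG00000050445) is a gene of 1 exon on chromosome 9, from 121914356 to 121916305, also on the minus strand. No other annotated gene overlaps either, so their UMIs are not shared with a neighbour. Of the pair, RefSeq promoter sequence was at hand for Cyp8b1. It is shown because Cyp8b1 is known as a target of HNF4, the nuclear receptor that drives many hepatocyte genes, and its capitals mark a match to an HNF4 motif. The 250 bases before the start of Cyp8b1 (GRCm38.p6, chr9:121916306-121916555, minus strand, 5′ to 3′) read as follows.
Cyp8b1: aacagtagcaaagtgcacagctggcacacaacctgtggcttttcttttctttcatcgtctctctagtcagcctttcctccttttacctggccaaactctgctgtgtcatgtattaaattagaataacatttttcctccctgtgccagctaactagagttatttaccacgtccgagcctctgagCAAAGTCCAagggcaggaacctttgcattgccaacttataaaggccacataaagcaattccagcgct
The letters CAAAGTCCA, searched on both strands, begin 67 bases before the start. They occur in 126 of 32851 mouse promoter windows of this length (0.384%) and in 2 of 11 windows of the panel's bile acid genes, those of Cyp8b1 and Cyp2c70. The nuclear receptor element AAGGTCA (4.08% of all windows), the clock E-box CACGTG (6.02%) and the D-box TTATGTAA (0.819%) were not found in the Cyp8b1 window. A match is a description of the letters, and these data hold no binding measurement.

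Cyp7a1 was highest at 24 h and lowest at 16 h. In time order its level was 698 CPM (interval 679 to 717), 1173 (1139 to 1207), 247 (235 to 260.0), 1642 (1617 to 1667) and 645 (630.2 to 660), from 5270, 4667, 1522, 17129 and 7280 UMIs. These counting intervals did not overlap between any 2 libraries, and the highest level was 6.64-fold the lowest. The order was 16 h, 30 h, 0 h, 8 h and 24 h, in which 30 h and 0 h lay closest.

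Cyp8b1 was highest at 30 h and lowest at 16 h. Its level was 2543 CPM (2507 to 2579), 4878 (4809 to 4947), 1994 (1959 to 2030), 2863 (2830 to 2895) and 6542 (6495 to 6590) in time order, from 19197, 19411, 12273, 29865 and 73853 UMIs. The order was 16 h, 0 h, 24 h, 8 h and 30 h, again with no overlap of counting intervals, and the range was 3.28-fold. Among the 64 panel genes, ranked by UMIs, Cyp8b1 moved between place 26 (0 h) and place 11 (30 h) and Cyp7a1 between place 46 (16 h) and place 29 (24 h). Both genes thus had their lowest CPM in the same library and their highest in different ones.

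**Figure D1:**
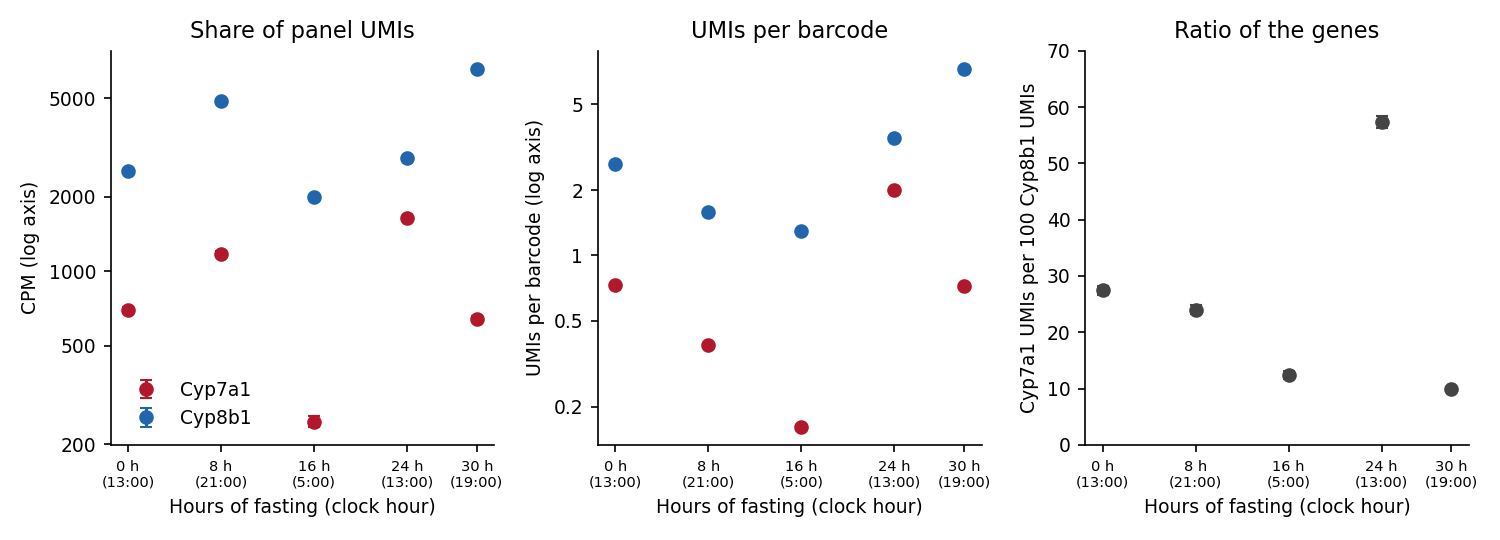
Level of Cyp7a1 (red) and Cyp8b1 (blue) in the 5 libraries as CPM and as UMIs per barcode (both on log axes), and UMIs of Cyp7a1 per 100 UMIs of Cyp8b1 (linear axis), against hours of fasting. Points are single libraries and bars are 95% counting intervals, most of them smaller than the points; the ratio is highest at 24 h (57.4) and lowest at 30 h (9.86).

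Against the fed library, the log2 ratio of Cyp7a1 was 0.75 (0.69 to 0.81), -1.50 (-1.58 to -1.41), 1.23 (1.19 to 1.28) and -0.11 (-0.17 to -0.063) in time order. Past 2-fold, it was 1 of the genes lower at 16 h, as were 28.6% of the 56 panel genes with enough UMIs, and 1 of those higher at 24 h, as were 8.93%. For Cyp8b1 the log2 ratio was 0.94 (0.91 to 0.97), -0.35 (-0.38 to -0.32), 0.17 (0.14 to 0.20) and 1.36 (1.34 to 1.39). It passed 2-fold at 30 h alone, where 16.1% of the panel was higher by as much. The 24 h library shares its clock hour with 0 h, and there Cyp7a1 was 2.35-fold higher and Cyp8b1 1.13-fold higher than in the fed library.

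From one library to the next, the pair moved together in 2 steps after 8 h and apart in the last. From 8 h to 16 h Cyp7a1 was 4.74-fold and Cyp8b1 2.45-fold lower, a step in which 30.4% of the panel was lower past 2-fold. From 16 h to 24 h Cyp7a1 was 6.64-fold and Cyp8b1 1.44-fold higher, where 7.27% of panel genes were higher past 2-fold. From 24 h to 30 h Cyp7a1 was 2.55-fold lower (5.45% of the panel was lower past 2-fold) while Cyp8b1 was 2.29-fold higher (9.09% was higher). This last step, across 6 h of fasting from clock hour 13 to 19, is the one in which the opening enzyme and the branch enzyme went in opposite directions.

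The level at 8 h depended on the denominator. Counted as UMIs per barcode, Cyp7a1 stood at 0.731, 0.384, 0.161, 2.002 and 0.721 in time order, so that the 8 h library was below the fed one (log2 -0.93). Cyp8b1 stood at 2.66, 1.60, 1.30, 3.49 and 7.32 UMIs per barcode, with 8 h again below (log2 -0.74). The median panel gene was lower by 1.68 on the same scale in this shallow library. The direction of the other differences from 0 h did not depend on this choice, except that Cyp7a1 at 30 h came to log2 -0.020. In bulk sums such as these, fewer cells with a transcript and less of it per cell cannot be told apart.

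The ratio of the 2 genes needs no denominator. Per 100 UMIs of Cyp8b1 there were 27.5, 24.0, 12.4, 57.4 and 9.86 UMIs of Cyp7a1 in time order. On the log2 scale the ratio was -1.87 (-1.91 to -1.82), -2.06 (-2.10 to -2.01), -3.01 (-3.09 to -2.93), -0.80 (-0.83 to -0.77) and -3.34 (-3.38 to -3.31). Cyp8b1 had more UMIs than Cyp7a1 in every library, although capture differs between genes and the ratio is not one of transcripts. The ratio at 24 h was 5.82-fold that at 30 h, 4.62-fold that at 16 h and 2.09-fold that at 0 h. Between 0 h and 8 h it differed least, by -0.19 on the log2 scale (-0.26 to -0.13), while both genes differed in CPM by more.

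Hepatocytes differ along the liver lobule, from the periportal side, where blood enters and Cyp2f2 is high, to the pericentral side, where Cyp2e1 is high. Barcodes with at least 5 UMIs of these 2 genes (7106, 9186, 9116, 8506 and 10041 in time order) were ranked in each library by the log2 ratio of Cyp2e1 to Cyp2f2 UMIs and divided into 5 equal bins, from the most Cyp2f2 (bin 1) to the most Cyp2e1 (bin 5). Genes left out of the ranking followed it. The pericentral genes Gulo and Glul were higher in bin 5 by 4.03 to 4.91 and 1.62 to 3.79 on the log2 scale, and the periportal genes Hsd17b13 and Alb were lower there in every library (-1.65 to -0.95 and -0.59 to -0.39).

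Cyp7a1 was concentrated in bin 5. From bin 1 to bin 5 the fed library held 142, 142, 186, 458 and 3931 CPM. The levels were 130, 319, 1334, 2073 and 3752 after 8 h of fasting, 20.4, 31.6, 38.8, 252 and 1365 after 16 h, 320.2, 449, 746, 3163 and 5932 after 24 h, and 77.4, 104, 141, 742 and 3127 after 30 h. In 3 libraries (0 h, 16 h and 30 h) bins 1 to 3 stayed below 200 CPM. At 8 h and 24 h bin 3 was higher than that, at 1334 and 746 CPM.

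Bin 5 held 72.8%, 55.6%, 74.4%, 52.5% and 69.9% of Cyp7a1 UMIs in time order, with 12.9% to 17.8% of all panel UMIs. The log2 ratio of bin 5 to bin 1 was 4.79 (4.60 to 4.98), 4.85 (4.61 to 5.10), 6.07 (5.54 to 6.65), 4.21 (4.11 to 4.32) and 5.34 (5.13 to 5.54) in time order. This was the largest such ratio of the panel genes compared in each of the 5 libraries, apart from the ranking genes. Gulo came next in each, and its interval overlapped that of Cyp7a1 at 0 h (4.72, from 4.58 to 4.87) and at 24 h (4.03, from 3.94 to 4.12). Bin 5 held 75.4%, 54.5%, 65.0%, 57.5% and 74.0% of Gulo UMIs, a larger share than of Cyp7a1 at 0 h, 24 h and 30 h. In time order 20%, 27.1%, 34.7%, 28.6% and 20% of the panel was higher in bin 5 past 2-fold, with a median log2 ratio of 0.66, 0.71, 0.90, 0.79 and 0.54. In 20 narrower bins, the highest Cyp7a1 level was in the most Cyp2e1-rich bin of each library. At 30 h that level (3835 CPM, from 3654 to 4023) overlapped in interval with bin 19 (3679, from 3500 to 3866).

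Cyp8b1 was spread across all bins and leaned to the pericentral end. From bin 1 to bin 5 the fed library held 2251, 2397, 2308, 2510 and 3792 CPM of it. The levels were 3259, 3858, 5516, 6518 and 7898 after 8 h of fasting, 1279, 1274, 1388, 2042 and 5495 after 16 h, 1827, 2125, 2353, 3685 and 5935 after 24 h, and 4909, 5390, 5811, 7131 and 11565 after 30 h. The log2 ratio of bin 5 to bin 1 was 0.75 (0.69 to 0.82), 1.28 (1.22 to 1.34), 2.10 (2.02 to 2.18), 1.70 (1.65 to 1.75) and 1.24 (1.20 to 1.27), the smallest in the fed library. Bin 5 held 19.3% to 37.4% of its UMIs.

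Part of the Cyp8b1 gradient moved with the denominator. Alb took 72.5% of panel UMIs in bin 1 and 53.1% in bin 5 at 0 h, and the gap was similar in the other libraries. Without Alb in the denominator, the log2 ratio of bin 5 to bin 1 was -0.018, 0.40, 1.08, 0.63 and 0.24 in time order. A pericentral lean of Cyp8b1 at 0 h was thus not seen on that scale. Both denominators hold Cyp2e1, which ranks the bins, with 741 UMIs in bin 1 and 69569 in bin 5 at 0 h. Cyp2e1 weighs more once Alb is left out, and its part in these values was not tested. For Cyp7a1 the median over the libraries was 4.85 with Alb and 4.02 without it. On either scale the gradient of Cyp7a1 was the steeper of the pair in every library.

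**Figure D2:**
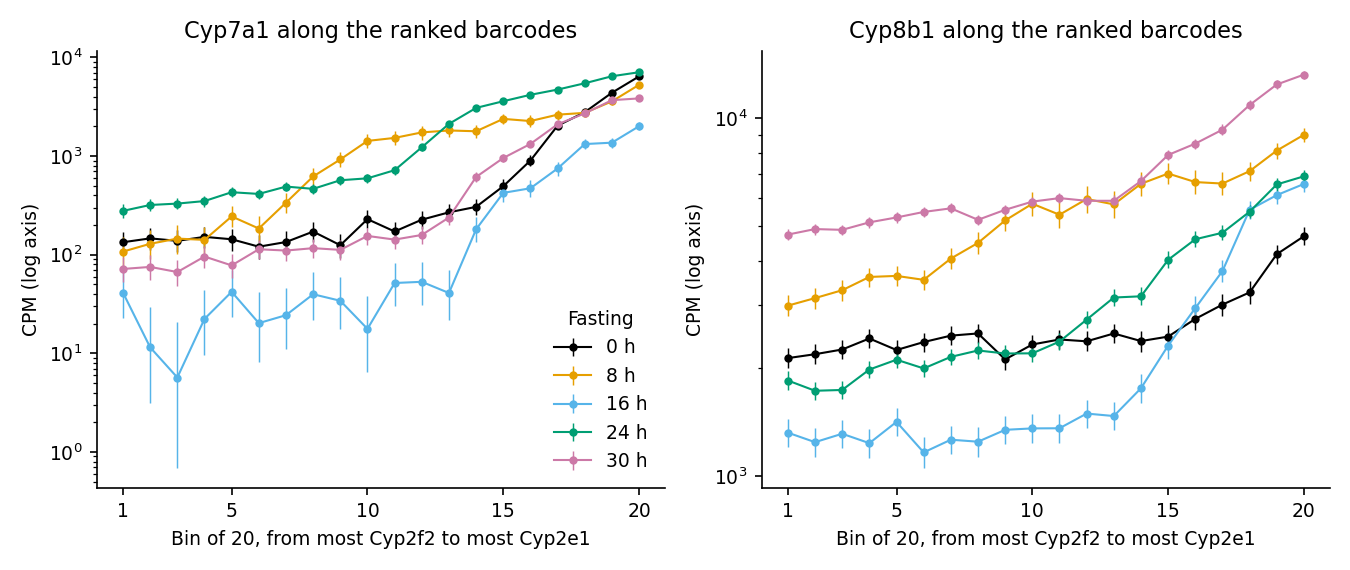
CPM of Cyp7a1 and Cyp8b1 (log axes) in 20 equal bins of barcodes ranked from most Cyp2f2 (1) to most Cyp2e1 (20), 1 line per library, with 95% counting intervals. From bin 1 to bin 20 at 0 h, Cyp7a1 goes from 134 to 6409 CPM, whereas Cyp8b1 goes from 2136 to 4680.

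The ratio of the pair therefore depended on position. Per 100 Cyp8b1 UMIs, Cyp7a1 went from 6.32 in bin 1 to 103.7 in bin 5 in the fed library. In time order, the fasted libraries went from 3.99 to 47.5, from 1.59 to 24.8, from 17.5 to 99.96 and from 1.58 to 27.0. In bin 5 of the fed library, and nearly so at 24 h, the opening enzyme had as many UMIs as the branch enzyme. The 2.09-fold higher ratio of the whole 24 h library over 0 h was not in bin 5, where the log2 ratio differed from 0 h by -0.052 (-0.13 to 0.025). By rank it lay in bins 1 to 4, where the values at 24 h were 17.5, 21.1, 31.7 and 85.8 against 6.32, 5.93, 8.07 and 18.2 at 0 h. With bins cut at the marker ratios of the 0 h bins, bin 4 held 20.1 at 24 h against 17.8 and bin 5 held 80.2 against 103.6, so the gap in bin 4 rested on ranks. At 16 h and 30 h the bins were alike, with 2.79 and 2.43 in bin 3 and 12.4 and 10.4 in bin 4.

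**Figure D3:**
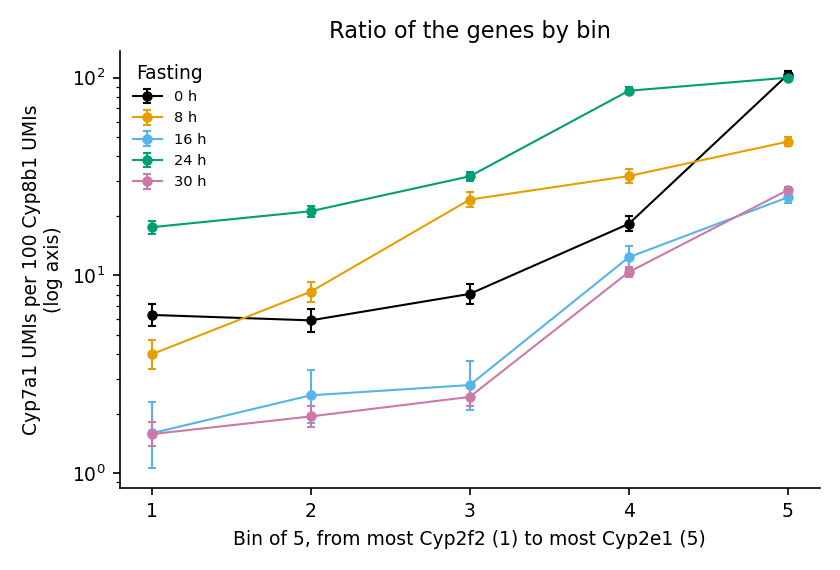
UMIs of Cyp7a1 per 100 UMIs of Cyp8b1 (log axis) in the 5 bins, 1 line per library, with 95% counting intervals. The 0 h and 24 h lines meet in bin 5 (103.7 and 99.96) and are apart in bin 4 (18.2 and 85.8); with the 0 h borders in both libraries bin 4 is 17.8 and 20.1 and bin 5 is 103.6 and 80.2.

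Equal bins compare ranks, and the markers themselves shifted between libraries. Cyp2e1 stood at 11020, 21897, 20241, 30034 and 32950 CPM in time order, and the median log2 marker ratio of bin 3 was -2.81, 0.68, -1.70, 0 and -1.42. Within ranks, Cyp7a1 at 24 h was above 0 h in all bins, by 1.17, 1.66, 2.002, 2.79 and 0.59 on the log2 scale from bin 1 to bin 5. With the borders of the 0 h bins used in every library instead, 41.7% of the 24 h barcodes fell in bin 4 and 56.8% in bin 5. There Cyp7a1 was below its 0 h level, by -0.15 (-0.28 to -0.017) and -0.33 (-0.38 to -0.28). In bin 3, with 1.16% of the 24 h barcodes, it was above (0.62, from 0.076 to 1.12). The 24 h library as a whole held more Cyp7a1 per panel UMI than the fed one, yet not in the bins of fixed marker ratio where most of its barcodes lay. A shift of the markers within cells and a different make-up of the library cannot be told apart here.

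The same held at 8 h. By rank, Cyp7a1 was above 0 h by 1.17, 2.84 and 2.18 in bins 2 to 4 and close to it in bins 1 and 5 (-0.13 and -0.067). With 0 h borders, 59.4% of the 8 h barcodes fell in bin 5, and Cyp7a1 there differed from 0 h by -0.60 (-0.66 to -0.53). In bin 4 the value was -0.62 (-0.81 to -0.42). In bins 2 and 3 it was -0.14 (-0.67 to 0.36) and -0.34 (-0.73 to 0.045), intervals that include 0. Bins 3 and 4 by rank at 8 h were also the shallowest, with medians of 137 and 135 UMIs per barcode, and held most RNA of other liver cells (324 and 296 CPM against 52.6 to 88.7 in the other bins). Their part in the result was not tested.

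The low Cyp7a1 at 16 h did not depend on how bins were drawn. By rank it was below 0 h in all bins, by -2.80, -2.17, -2.26, -0.86 and -1.53, and with 0 h borders by -2.88, -3.36 and -1.98 in bins 3 to 5. At 30 h, bins by rank gave -0.88, -0.44, -0.40, 0.70 and -0.33, whereas 0 h borders gave -0.87, -1.32, -1.75 and -0.83 in bins 2 to 5. The whole-library level of Cyp7a1 at 30 h, close to that of 0 h, thus went with lower values in each of these 4 bins.

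Cyp8b1 at 30 h was above the fed library all along the lobule, by 1.13, 1.17, 1.33, 1.51 and 1.61 from bin 1 to bin 5 and by 0.98 to 1.39 with 0 h borders. At 8 h it was higher in each bin as well, by 0.53 to 1.38 by rank and 0.38 to 0.85 with 0 h borders. At 16 h it was lower in bins 1 to 4 (-0.82, -0.91, -0.73 and -0.30) and higher in bin 5 (0.53), and the last value was 0.19 with 0 h borders. At 24 h it was lower in bins 1 and 2 (-0.30 and -0.17) and higher in bins 4 and 5 (0.55 and 0.65). Without Alb the lower values of bins 1 and 2 at 24 h came to 0.012 and 0.081, and with 0 h borders bins 3, 4 and 5 came to -0.60, -0.32 and 0.042.

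**Figure D4:**
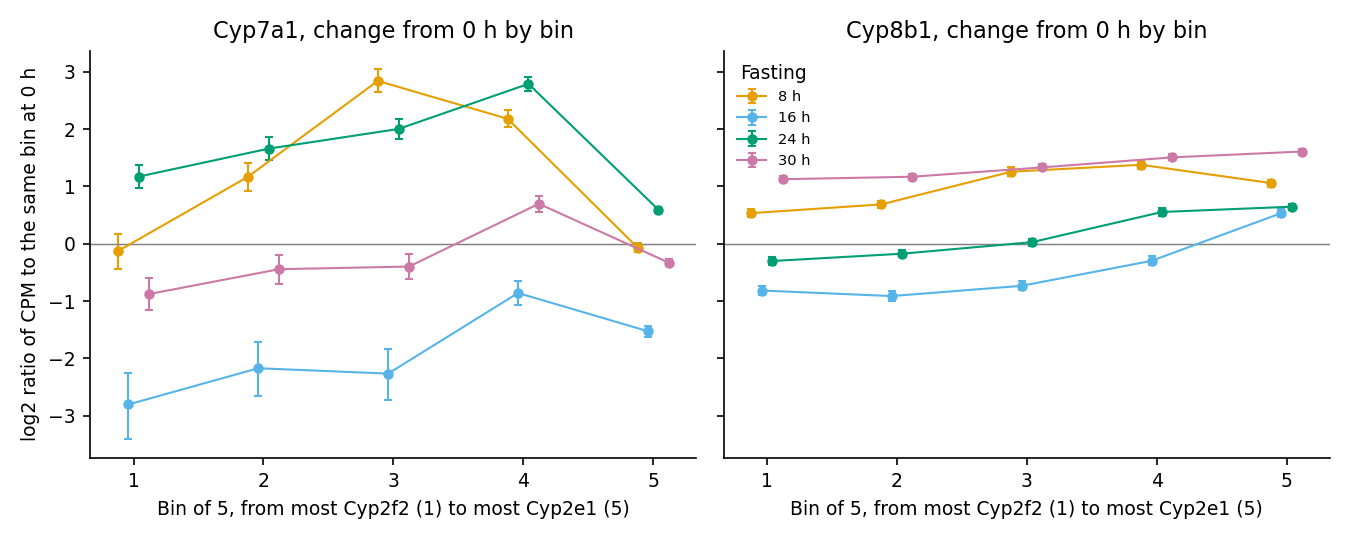
Log2 ratio of CPM to the same bin at 0 h for Cyp7a1 and Cyp8b1 in the 5 equal bins, 1 line per fasted library, with 95% counting intervals. Cyp8b1 at 30 h lies above 0 in all bins (1.13 to 1.61), and Cyp7a1 at 16 h lies below 0 in all bins (-2.80 to -0.86).

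Set against another pericentral gene of the same library, Cyp7a1 again was lowest at 16 h and highest at 24 h. Gulo, whose product in mice completes vitamin C synthesis, stood at 1072, 1804, 1751, 1675 and 964 CPM in time order. Per 100 Gulo UMIs there were 65.1 (62.9 to 67.4), 65.0 (62.6 to 67.4), 14.1 (13.4 to 14.9), 98.0 (96.0 to 100.1) and 66.9 (64.9 to 68.9) UMIs of Cyp7a1. On this scale 0 h, 8 h and 30 h did not differ beyond counting error, 16 h was low and 24 h was high. Cyp8b1 set against Cyp27a1, the hydroxylase that opens the alternative pathway of bile acid synthesis, came to 187, 228, 123, 179 and 304.3 UMIs per 100. Against Cyp7b1 it came to 469, 366 and 621 per 100 at 8, 24 and 30 h, and to 169.5 at 0 h and 104 at 16 h. On both scales the 30 h library was highest and 16 h lowest, as in CPM, while 24 h was below 0 h against Cyp27a1 and above it against Cyp7b1.

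To compare shares of barcodes that held a transcript, all barcodes were reduced at random to 200 panel UMIs, which left out 52, 5807, 522, 4 and 26 shallower barcodes. Cyp7a1 was then seen in 12.4%, 16.6%, 5.10%, 27.0% and 12.1% of barcodes in time order, and Cyp8b1 in 38.4%, 56.9%, 32.3%, 43.5% and 69.1%. Without thinning the shares were 26.4%, 21.0%, 9.94%, 57.5% and 28.4% for Cyp7a1 and 82.6%, 63.7%, 61.5%, 87.0% and 96.3% for Cyp8b1. These thinned shares ordered the libraries as CPM did, but for Cyp7a1 the intervals of 0 h and 30 h overlapped, and thinned to 500 UMIs they came to 18.4% and 19.2%, the other way round. Barcodes with at least 3 UMIs of the 6 genes of other liver cells could serve as a background, and they numbered 36, 105, 4, 17 and 18. Only 25, 5, 1, 14 and 15 of them had the 200 panel UMIs needed for thinning. Those kept were rich in Alb (45.7% to 80.5%), with median depths of 277, 234, 863, 288 and 914 UMIs. In them Cyp7a1 was seen in 0% to 40% and Cyp8b1 in 0% to 64.3%, so no background level was read from them.

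By bin, the thinned share of barcodes with Cyp7a1 was 2.60%, 2.56%, 0.385%, 6.06% and 1.94% in bin 1 in time order and 47.2%, 47.7%, 20.4%, 63.3% and 41.5% in bin 5. For Cyp8b1 the shares were 33.8%, 44.2%, 21.8%, 28.5% and 58.1% in bin 1 and 51.5%, 75.7%, 63.4%, 67.7% and 87.4% in bin 5. Cyp7a1 was thus rare per barcode at the Cyp2f2 end, and Cyp8b1 was seen at both ends. The part of free RNA in the low shares of Cyp7a1 in bin 1 was not tested.

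Within bin 5, Cyp8b1 was seen somewhat more often in barcodes that also held Cyp7a1. Of barcodes there with Cyp7a1, 52.8% also had Cyp8b1 at 0 h, against 50.3% of those without it. In the fasted libraries the shares were 78.7% and 72.9%, 72.6% and 61.1%, 70.7% and 62.5%, and 88.2% and 86.9%. The counting intervals of the paired shares did not overlap at 16 h and 24 h and did in the other libraries. Bin 5 spans a range of marker ratios, whose part in this was not tested.

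The most Cyp7a1 UMIs in a barcode were 23, 15, 10, 40 and 24, and the most Cyp8b1 UMIs were 21, 21, 14, 24 and 33. The Cyp7a1 maximum was the higher of the pair at 0 h and 24 h and the lower at 8 h, 16 h and 30 h, although summed Cyp7a1 was lower in every library. Each maximum was taken over all barcodes, so the paired values need not come from the same barcode.

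The panel held 16 of 44 listed bile acid genes, 11 for synthesis, 5 for regulation and 0 for transport, and 15 had enough UMIs to compare. Fgf15, made in the gut, had no UMI. Against 0 h, those higher past 2-fold were Hsd3b7 and Cyp46a1 at 8 h, Nr0b2 and Hsd3b7 at 16 h, Cyp7a1 at 24 h, and Nr0b2 and Cyp8b1 at 30 h. The panel's shares were 17.9%, 10.7%, 8.93% and 16.1%. Those lower were 0 genes at 8 h, Cyp7a1 at 16 h, 0 at 24 h and Cyp2c70 at 30 h, where the panel's shares were 12.5%, 28.6%, 23.2% and 26.8%. The list's median log2 ratio was 0.39, -0.030, 0.10 and 0.031 beside 0.047, -0.15, -0.12 and -0.071 for the panel. In CPM, 6 of the 15 genes thus passed 2-fold in some library. The panel shares above are for single libraries and directions, so this pooled count is not read as a trait of the list. As UMIs per barcode, 11 of the 15 were lower past 2-fold at 8 h. The median panel gene was itself lower by 1.68 on the log2 scale there, so this count is not particular to the list.

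Of the other synthesis genes, Cyp27a1 had log2 ratios to 0 h of 0.65, 0.26, 0.24 and 0.66 in time order. Cyp7b1, the next hydroxylase of the alternative pathway, had -0.53, 0.35, -0.94 and -0.51. Hsd3b7, the dehydrogenase that follows Cyp7a1 in the pathway, had 1.43, 1.79, 0.21 and 0.85, and its UMIs can include those of an overlapping gene. Cyp2c70, which makes muricholic acids in mice, had 0.66, 0.49, -0.93 and -1.93, so at 30 h it was low where Cyp8b1 was high. Nr0b2, known as a repressor of both members, had 0.57, 1.20, 0.78 and 1.08, though as UMIs per barcode the 8 h value was -1.11. On that scale Nr0b2 stood at 0.562, 0.786 and 0.883 at 16, 24 and 30 h, so its peak at 16 h held in CPM only. Its receptor Nr1h4 varied little, with 0.10, 0.15, 0.11 and -0.09.

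**Figure D5:**
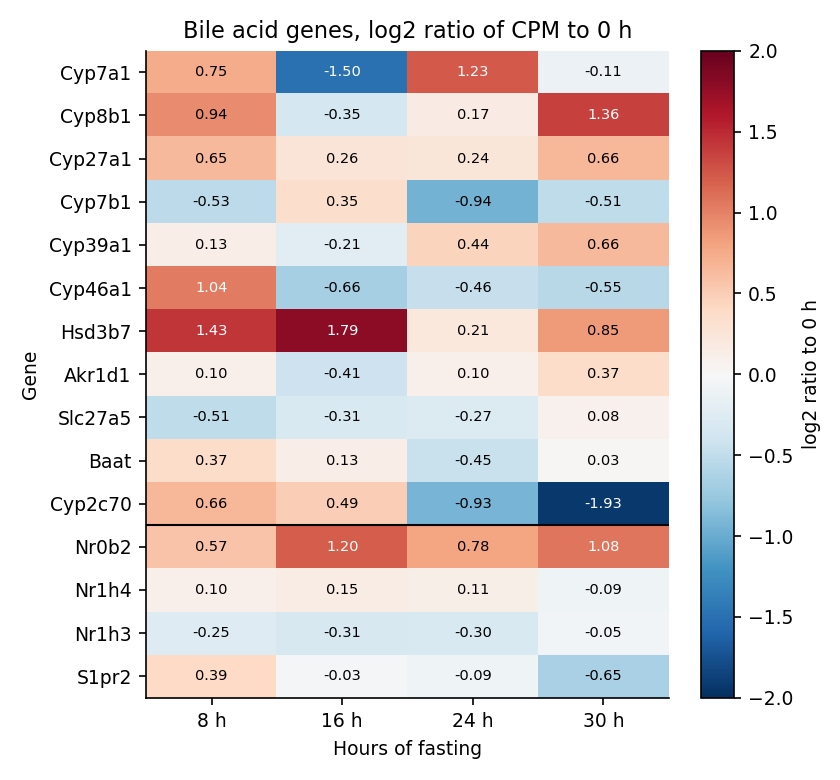
Log2 ratio of CPM to 0 h of the 15 panel genes of bile acid synthesis (above the line) and regulation (below it) at each fasting time, in red where higher and blue where lower. In CPM, Cyp7a1 is at its lowest at 16 h (-1.50), where Hsd3b7 (1.79) and Nr0b2 (1.20) are at their highest. As UMIs per barcode Nr0b2 is highest at 30 h (0.883, against 0.562 at 16 h).

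Likeness over time was measured as the root mean square difference of log2 ratios to 0 h over the 4 fasted libraries, among 51 genes with at least 100 UMIs in each library. The genes nearest to Cyp7a1 were Glul (0.79), Akr1d1 (0.88) and Cyp39a1 (0.90), none of them close, and Cyp8b1 came in place 14 (1.08). Those nearest to Cyp8b1 were Cyp27a1 (0.49), Cyp39a1 (0.56) and Akr1d1 (0.65), with Cyp7a1 in place 29. Cyp7a1 thus had no near match on the panel over time. The fasted libraries share the same 0 h library, so these distances are descriptions.

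Likeness along the lobule was measured in the same way on log2 CPM centred within each library, over 5 bins of 5 libraries and 49 genes. Nearest to Cyp7a1 were Gulo (0.41), Elovl3 (1.06) and Glul (1.11), and nearest to Cyp8b1 were Cyp7b1 (0.14), Cyp27a1 (0.20) and Cyp2c70 (0.21). All 3 genes nearest to Cyp8b1 are bile acid synthesis genes of the list. Cyp7a1 came last of 49 by likeness to Cyp8b1, so the enzyme that opens the classic pathway had the zone profile of a pericentral gene and its partner that of the alternative pathway's genes. Of the 14 bile acid genes with enough UMIs in the end bins, 5, 6, 8, 7 and 5 were higher in bin 5 past 2-fold in time order, and 0 were lower in any library. Of the panel, 20%, 27.1%, 34.7%, 28.6% and 20% were higher there past 2-fold and 0%, 2.08%, 2.04%, 2.04% and 4% lower.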

How the data were processed

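The authors deposited 1 matrix of UMI counts of 64 genes by 47473 barcodes, not normalized, and a table that gives each barcode's library. Hepatocytes were profiled with the 10x Genomics 3' kit (v3), 1 library per time point, and enriched for the panel by hybrid capture, per the labels' protocols. Cell Ranger 6.0.1 and mm10 are named in the submitters' processing notes. How barcodes were called as cells is not given in the sources used here.

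All barcodes were used, and no doublet caller was run on so small a panel. From the deposited counts, UMIs were summed per library (CPM: UMIs per 1000000 panel UMIs) or per zone bin. Barcodes were ranked by log2((Cyp2e1 + 1)/(Cyp2f2 + 1)), with ties broken at random (seed 1). Intervals at 95% were exact Poisson (CPM), conditional binomial (log2 ratios), Clopper-Pearson (shares) and normal (differences of log2 ratios). With 1 library per time point no test was made. Comparisons of libraries took genes whose UMIs in the pair summed to 100 or more, and a fold of 2 for counts; zone comparisons took genes with 100 or more in the end bins together. The named genes were the 2 members, the panel's bile acid genes, the 3 genes most like each member over time and over bins, and zone markers.

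The members, lists and tests were chosen with earlier results of these data known. Positions came from GENCODE release M21 (GRCm38), and sequences from RefSeq (GRCm38.p6), which matched 10 of 16 bile acid genes of the panel. Python 3.11.15, numpy 2.4.6, pandas 2.3.3 and scipy 1.17.1 were used, and the steps were tested on simulated data. Alternatives were other denominators, barcode filters, bin borders and thinning depths. Bins with 0 h borders for changes within bins, ratios to Gulo, Cyp27a1 and Cyp7b1, UMIs per barcode for zones and bile acid counts, and leaving out the 8 h library were chosen after seeing the data.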

Additional observations from a re-analysis of the deposited data

Results flagged for a closer look

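Cyp8b1 at 16 h differed from 0 h in opposite directions along the lobule. Its log2 change was -0.91 in bin 2, the lowest of the equal bins, and 0.53 in bin 5. With the borders of the 0 h bins these values were -0.92 and 0.19, and without Alb they were -0.73 and 0.45.

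Cyp8b1 at 24 h was lower than at 0 h in bin 1 (-0.30) and higher in bin 5 (0.65). Without Alb the value of bin 1 was 0.012, and with 0 h borders that of bin 5 was 0.042 with an interval that includes 0 (-0.0093 to 0.093).

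Cyp7a1 at 30 h was lower than at 0 h in bin 1 (-0.88) and higher in bin 4 (0.70). With 0 h borders the value of bin 4 was -1.75. In each case the interval of counting error of both values excludes 0, but each bin comes from 1 library per time point, so the difference between bins was not tested over replicates.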

How the results depend on the processing

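No paired analysis was possible because each time point has 1 library. Log2 ratios to 0 h at 8, 16, 24 and 30 h as UMIs per barcode were -0.93, -2.18, 1.45 and -0.020 for Cyp7a1 and -0.74, -1.04, 0.39 and 1.46 for Cyp8b1, so both 8 h values changed direction. Without Alb, Cyp7a1 was 0.84 at 8 h and 1.35 at 24 h, and Cyp8b1 1.03, -0.28 and 0.29 at 8, 16 and 24 h. With median-of-ratios scaling Cyp7a1 was 0.69, -1.39 and 1.35 and Cyp8b1 0.88, -0.25 and 0.29 at those times. With barcodes of 300 or more UMIs, Cyp7a1 was 0.59 at 8 h and Cyp8b1 0.88 at 8 h and -0.40 at 16 h. Without the 5% of barcodes with most UMIs, Cyp8b1 was 0.97, -0.30, 0.21 and 1.39, and the log2 ratio of the 2 genes was -1.76, -1.99, -0.73 and -3.27 at 0, 8, 24 and 30 h. That ratio was -2.18 at 8 h with 300 or more UMIs.

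The median log2 ratio of bin 5 to bin 1 of Cyp7a1 was 4.02 without Alb, 5.28 with 10 bins, 5.17 with 300 or more UMIs and 4.02 as UMIs per barcode. That of Cyp8b1 was 0.40 without Alb, 1.48 with 10 bins, 1.39 with at least 20 marker UMIs, 1.36 with 300 or more UMIs, 1.21 with 0 h borders, 0.53 as UMIs per barcode and 1.47 without the 8 h library. At 0 h it was -0.018 without Alb and -0.11 per barcode. With 0 h borders, bin 1 at 24 h held 8 barcodes and 0 Cyp7a1 UMIs, so no median could be given for Cyp7a1 or the ratio. Of 33 changes within bins, 0 h borders turned 9: Cyp7a1 at 8 h to -0.14, -0.34 and -0.62 in bins 2 to 4, at 24 h to -0.15 and -0.33 in bins 4 and 5, and at 30 h to -1.75 in bin 4, and Cyp8b1 at 24 h to 0.045, -0.60 and -0.32 in bins 2 to 4 (bin 3 from 0.028, whose interval includes 0). Another 7 had under 20 UMIs and got no value. Leaving out Alb turned 4 of 40, Cyp8b1 at 24 h to 0.012 and 0.081 in bins 1 and 2, and Cyp7a1 at 8 h to 0.19 and 0.14 in bins 1 and 5, from values whose intervals include 0. The cause was not tested. Without 8 h, Igf1 was nearest to Cyp8b1 over time (0.37). Per barcode, 0 bile acid genes were higher and 11 lower past 2-fold at 8 h, where the median panel gene was lower by 1.68 on the log2 scale. Depth limits the 8 h library most.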
